A study of Homo sapiens with 12 samples.

Results

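HCC1937 cells grown for 72 h with 66 µg/mL of a water extract made from Kalanchoe pinnata, a medicinal succulent, were compared with HCC1937 cells grown for the same time as controls. Each group held 3 libraries, and these 6 were taken by sample title from the 12 libraries of the study, whose remaining 6 come from MDA-MB-231 cells. All 19516 genes with a symbol in the deposited count table were considered. HCC1937 is an established line of a triple-negative breast carcinoma with basal features, a tumour class that lacks the hormone receptors and HER2 amplification, and it is known for a BRCA1 mutation. The cells were kept in RPMI medium with serum, and the labels name capture of messenger RNA on poly-T beads together with a kit for total RNA. No vehicle is named for the controls. Titles give HCC1937 for all 6 samples, whereas the separate field for the cell line counts upward from HCC1937 to HCC1942, one name per sample. The title of the series points to migration and invasion and to 4 genes, JAK2, ROCK1, ROCK2 and PIK3CA. Nothing in the labels says that the 3 libraries of a group came from separate cultures, so p-values reflect only how these libraries vary, which can be technical.

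With extract, transcripts of HSPA6, HSPA1A and HSPA8 of the HSP70 family and of the collagenase MMP1 were higher, as were most of those of AP-1 factors, glycolytic enzymes, ribosomal proteins and proteasome subunits, and those of interferon-induced genes, centrosome and kinetochore proteins, kinesins, DNA break repair and large chromatin regulators were mostly lower. Fold changes ran together with the length and base composition of the transcripts, and they are therefore given in a second form that takes this trend out. As background, heat shock genes are switched on by HSF1 when proteins misfold, and their products refold or triage them. AP-1 is a dimer of FOS and JUN proteins that responds within minutes to stress and growth factor signalling, and its targets include matrix proteases of invading cells. Interferon-induced genes are driven by a complex that includes STAT2 and IRF9, and they limit the replication of viruses.

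The 3 control libraries held 22297014 to 26212277 counts and the 3 extract libraries 29126179 to 31337431. Spearman correlations within groups ran from 0.9968 to 0.9981 across genes, and the biological coefficient of variation was 0.0409 in controls and 0.0448 with extract, so neither group held a library that stood apart. Reads were found for 14945 to 15154 genes in controls and for 14106 to 14128 genes in the deeper extract libraries. Mitochondrially encoded genes took 3.53% to 3.69% of counts in controls and 3.78% to 3.98% with extract. The 16 basal epithelial markers summed to 6849 to 7057 CPM (reads scaled to a common library total) in controls and 11230 to 11380 with extract, against 1613 to 1669 in MDA-MB-231 controls, which fits an epithelial line. Most of the sum is KRT8 (2673 CPM pooled over controls, 4852 with extract) and KRT18 (1460 and 3611), so it does not show basal features in particular. The other keratins among them ranged from KRT6B at 2.41 to KRT17 at 515 CPM in controls. In the test described below, 10 of the 16 rose and 6 fell. The 16 mesenchymal markers summed to 3094 to 3120 and 2911 to 2943 CPM (10790 to 10850 in MDA-MB-231). Other cell types were scarce. Fibroblast markers summed to 37.7 to 39.9 CPM in controls and 7.04 to 8.71 with extract, with 5 of 10 genes at 0. Endothelial markers summed to 28.3 to 29.2 and 15.5 to 17.5 CPM with 2 of 7 at 0, and leukocyte markers to 77.8 to 80.9 and 157 to 160 CPM with 2 of 10 at 0. Most of the leukocyte sum is CD68 (72.9 CPM pooled over controls and 149.7 with extract). The luminal markers, 8 in number, summed to 400 to 410 and 313 to 335 CPM. Their part in the results was not tested. In such bulk samples fewer cells of a type and less RNA per cell cannot be told apart.

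Of 12993 genes tested with edgeR's quasi-likelihood test, 5516 (42.5%) rose and 5747 (44.2%) fell at a Benjamini-Hochberg adjusted p under 0.05, while 1730 did not pass. The other genes of the table had too few reads for the test. At least a 2-fold change was reached by 2549 rises (19.6%) and 3598 falls (27.7%). These shares are the background against which every count of genes below has to be read. They rest on TMM, which places the bulk of genes near no change (median log2 fold change -0.05). With library totals alone as the scale, fold changes shifted by -0.507 on the log2 scale at the median and rises made up 32.7% of calls in place of 49.0%. Upper quartile scaling shifted them by -0.175, with 43.6% of calls rising. Of the genes named below outside the trace set, ISG15 alone changed direction with library totals. No measure of RNA per cell is at hand, so a rise or fall is a change relative to the bulk of genes on the TMM scale. A gene whose share of all counts hardly changed can be called a rise, as STAT3 was (0.55, and 0.04 with library totals).

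Transcript length and GC content ordered the fold changes. Among 438 genes whose longest protein-coding transcript exceeds 8 kb and holds at most 42% GC, the median log2 fold change was -2.03, with 92.9% of them falling and 2.05% rising. For the 985 genes of the opposite corner, up to 2 kb and above 58% GC, it was 0.97, with 72.1% rising and 13.0% falling. For the long AT-rich class, the median deviation from the control mean was -0.0613, 0.0486 and 0.0178 in the controls and -1.88, -1.87 and -1.91 in the extract libraries, on the scale of log2(CPM + 0.5). For the short GC-rich class it was 0.049, -0.0432 and -0.00559 in the controls and 0.929, 0.909 and 0.927 with extract. The 2 groups did not overlap in either class.

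GC content went further than length. The 2886 genes with at most 42% GC had a median of -1.52 and 87.6% of them fell, while the 3098 genes with over 58% GC had a median of 0.72. By length alone, medians went from 0.67 for the 2750 genes of at most 2 kb to -1.15 for the 1060 genes over 8 kb. Across the 12917 genes with an annotated transcript, Spearman's correlation of the fold change was 0.576 with GC and -0.397 with length, and -0.324 between length and GC themselves. These are descriptions across genes, which are not replicates and which share the same 6 libraries. A smooth surface of both took up 40.6% of the variance in fold change, GC alone for 36.0% and length alone for 14.6%. Degradation of RNA, its fragmentation and amplification of the libraries were not tested as sources of this trend.

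**Figure D1:**
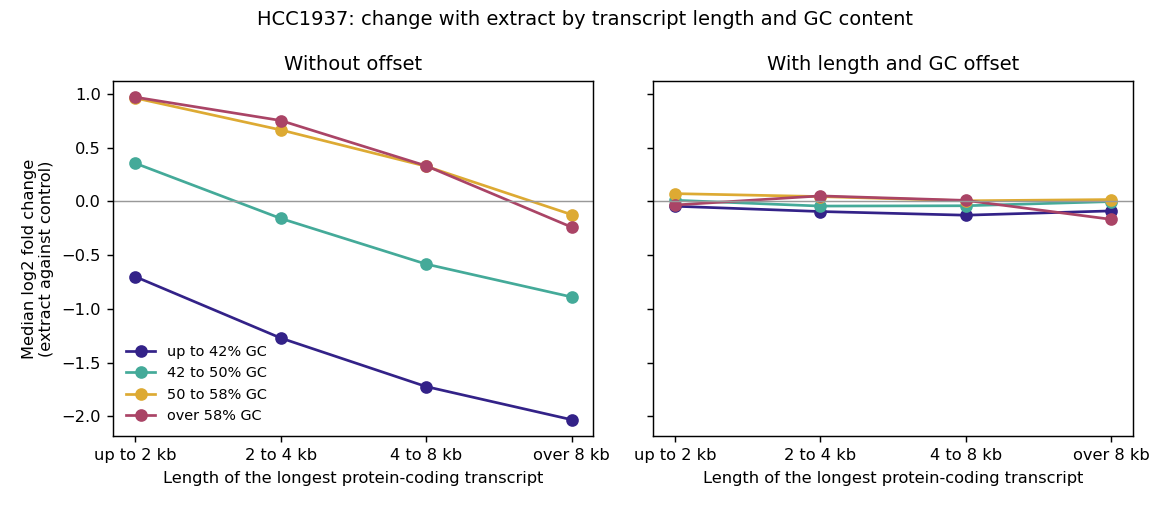
Median log2 fold change of extract against control (y axis) for genes grouped by the length of their longest protein-coding transcript (x axis) and its GC content (lines), without (left) and with (right) the length and GC offset. Without the offset, medians fall from 0.97 for short GC-rich transcripts to -2.03 for long AT-rich ones, and with it they lie near 0 in each class.

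A correction for this trend was fitted in each library and passed to the test as an offset. It left 0.339% of the variance to length and GC. With it 5289 genes (40.9%) rose and 5196 (40.2%) fell of 12917 tested. Of the falls, 3867 were called down again, 882 were not called and 961 were called up. Of the rises, 3951 were called up again, 915 were not called and 631 were called down. The offset removes from a gene whatever is shared by genes of like length and GC, be it technical or not, and it uses the longest transcript, which is not always the one a cell makes most of. Below, where brackets hold 2 log2 fold changes in a row, the first is without and the second with the offset. Among 44 gene lists with at least 5 tested genes, 26 had a median above 0 and 18 below. The sign was the same with the offset for 37 and turned for 7, and 38 medians moved closer to 0.

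**Figure D2:**
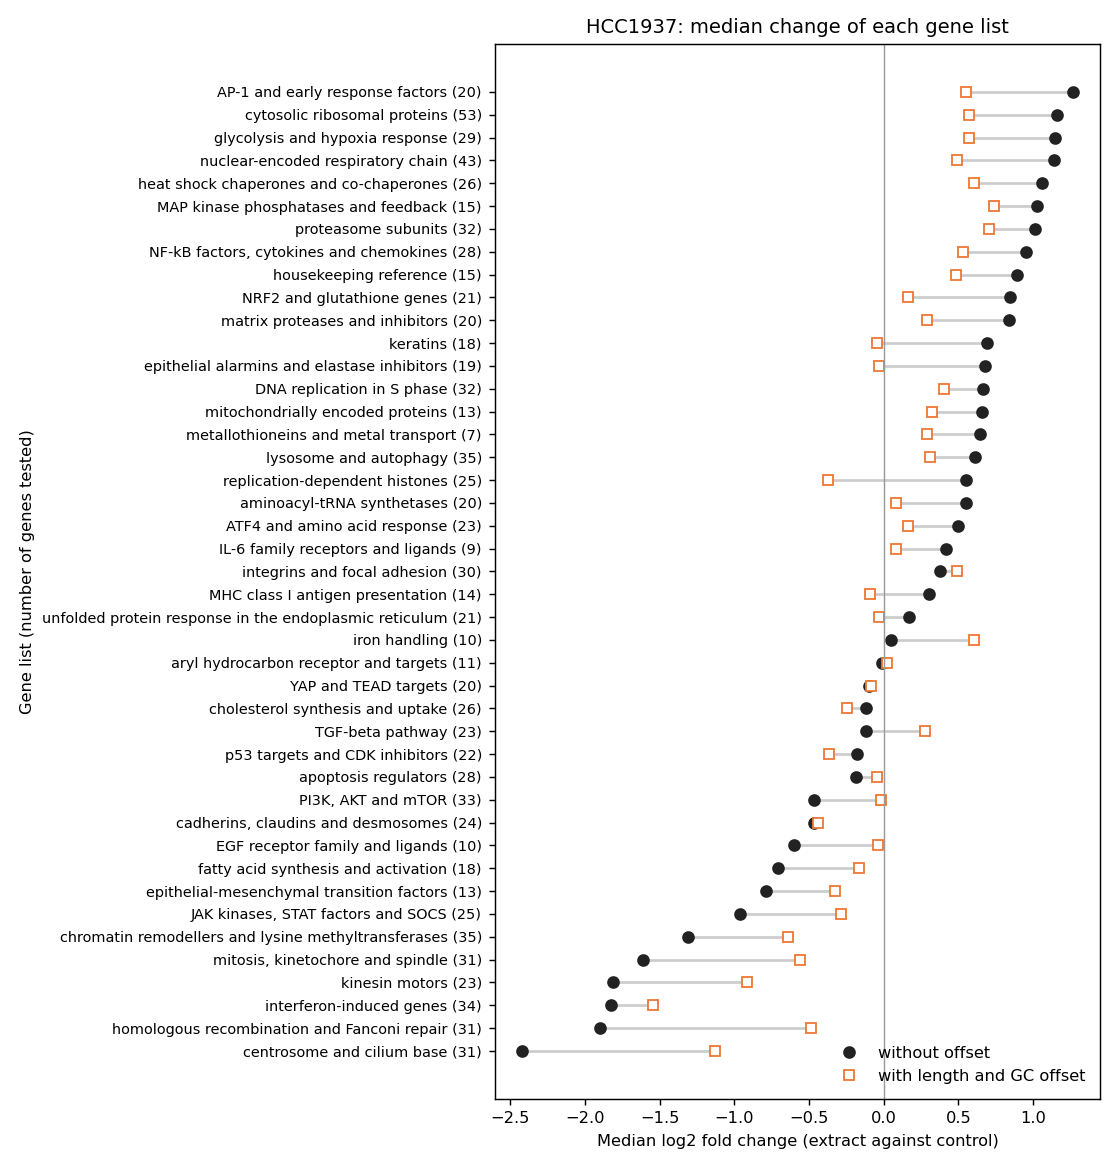
Median log2 fold change of extract against control (x axis) over the tested genes of each of 43 of the 44 gene lists (y axis, number of genes in brackets), without (filled circles) and with (open squares) the length and GC offset. Centrosome genes have the lowest median without the offset (-2.42), and interferon-induced genes the lowest with it (-1.55).

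Transcripts typical of MDA-MB-231 were present at trace level in the HCC1937 libraries, and at a higher level in the controls. The set comprised 49 genes that averaged 50 CPM or more in MDA-MB-231 controls and a mean over all 6 HCC1937 libraries of at most 1% of that, a rule that treats controls and extract libraries alike. Their summed level was 0.416%, 0.444% and 0.427% of the MDA-MB-231 level in E25, E26 and E27 (controls), and 0.117%, 0.115% and 0.1% in E31, E32 and E33 (extract). The lowest control lay above the highest extract library by more than 3 times. In reads this was 3037 over the controls and 957 over the extract libraries. Pooled over libraries, 45 genes stood higher in controls and 4 with extract. In 35 all 3 controls lay above all 3 extract libraries, in 14 the groups overlapped, and in none did the extract libraries lie above. The groups of 87.0% of all genes tested do not overlap, counting both directions on the TMM scale. The trace counts are per library total, a scale on which fold changes of the genes tested shifted by -0.507 (log2, median). The share of all genes lying lower with extract on that scale is not given here. The 35 and 45 of 49 can therefore not be read as high or low. Reads of 47 of the 49 were found in every control, and 6 had no read with extract. The median gene stood at 0.432% of its MDA-MB-231 level in controls (interquartile range 0.277% to 0.669%) and at 0.0665% with extract (0.0202% to 0.180%).

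VIM, the intermediate filament vimentin of mesenchymal cells, dominated the set with 4185 CPM in MDA-MB-231 controls. It had 336, 431 and 411 reads in the HCC1937 controls and 79, 63 and 73 with extract, or 0.384% and 0.0573% of that level. SRGN, a proteoglycan core protein, had 18, 20 and 31 reads in controls and 5, 2 and 1 with extract. PLOD2, a collagen lysyl hydroxylase, had 8, 17 and 19 reads and 0, 0 and 2. The sulfate-activating PAPSS2 had 20, 22 and 20 reads against 2, 2 and 0, and the glutamate dehydrogenase GLUD1 20, 23 and 14 against 3, 1 and 1. These 5 were picked from the 35 genes in which each control lay above each extract library. In 14 of the 49, TUBA1A among them, the groups overlapped. Pooled over libraries, the chemokine CXCL8 was higher with extract, with 17, 33 and 17 reads in controls and 32, 62 and 37 with extract. So was the growth factor CSF3, with 14 reads over the controls and 35 over the extract libraries. Of the 49 genes, 18 had enough reads to be tested, of which 12 fell, 1 rose and 5 did not pass. Their median log2 fold change was -2.12, and -0.79 with the length and GC offset. The 49 genes have a median transcript of 3732 nt with 45.8% GC. With an upper limit of 2% in place of 1%, 59 of 66 genes stood higher in controls, but their summed level was higher with extract (0.967% against 0.672%).

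**Figure D3:**
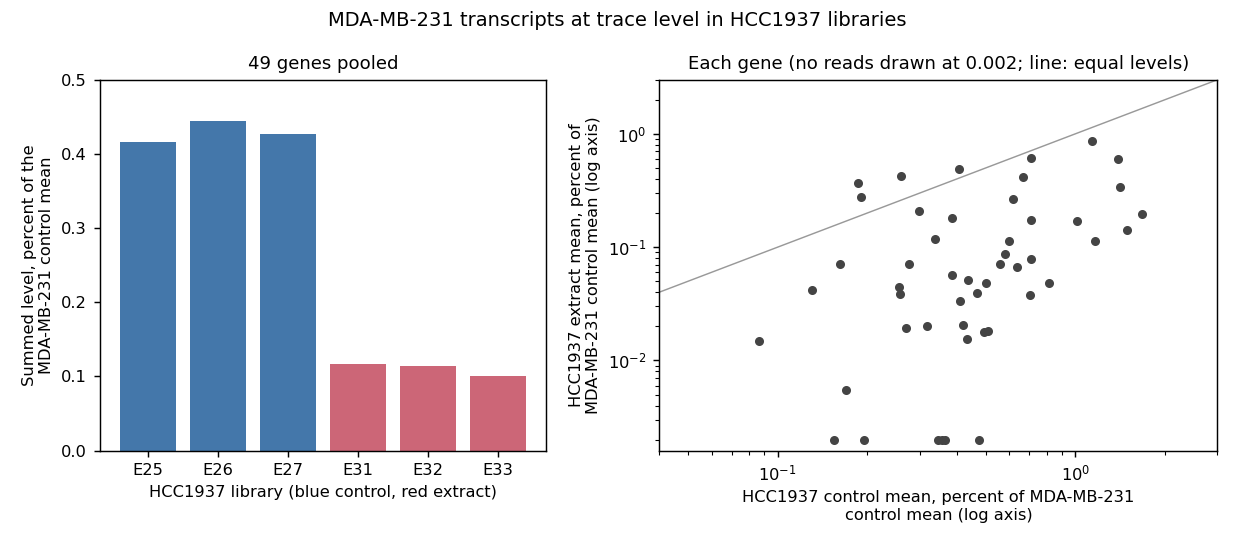
Left: summed level of 49 MDA-MB-231 genes in each HCC1937 library as a percent of the MDA-MB-231 control mean, 0.416% to 0.444% in controls and 0.1% to 0.117% with extract. Right: the same percent for each gene in HCC1937 controls (x axis) and with extract (y axis), both on log axes, where 45 of 49 points lie below the line of equal levels.

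A level of 3 counts corresponds to 0.0957 to 0.135 CPM in these libraries, and many of the genes of this set lie near it with extract. Where these reads come from was not tested. In all, 266 genes had reads in every control and none with extract, of which 42 (15.8%) reached 10 CPM in MDA-MB-231 controls, and 22 had reads in every extract library and none in the controls, of which 0 did. The share among all genes with as few reads is not given here, so 15.8% cannot be read as high or low. The 266 and the 22 also differ in their median transcript, 2807 nt with 46.5% GC against 1486 nt with 54.3%.

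The largest rises joined inducible stress genes with genes of invasion and xenobiotic metabolism. HSPA6, a strictly inducible HSP70, was at 0.113, 0.0959 and 0.0 CPM in the controls and 45.2, 44.8 and 48.3 CPM with extract, with 6 reads over all controls and 3470 over the extract libraries (log2 fold change 9.29 ± 0.19 (8.51 with the offset), a size that rests on those 6 reads). MMP1, interstitial collagenase, was at 6.53, 6.2 and 5.94 CPM in the controls and 383, 386 and 371 CPM with extract. It rose 61.1-fold (log2 fold change 5.93 ± 0.05 (SE), adjusted p = 1.16e-31, 6.17 with the offset). SNAI1, a repressor of epithelial genes, was at 1.55, 2.17 and 2.19 CPM in the controls and 37.2, 38.8 and 35.7 CPM with extract (4.23 ± 0.11, adjusted p = 2.53e-22, 3.28 with the offset). CYP1A1, the xenobiotic-metabolising target of the aryl hydrocarbon receptor, was at 0.528, 0.831 and 0.82 CPM in the controls and 10.4, 11.4 and 13.6 CPM with extract (4.00 ± 0.19, adjusted p = 1.43e-16, 3.38 with the offset). In each of these 4 genes replicates lay close together beside the distance between the groups. Groups that do not overlap were a condition for the choice of the largest changes.

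PI3, the elastase inhibitor elafin, was the most abundant of the large rises and went from 70.1 ± 1.96 to 975 ± 10.8 CPM (SD, n = 3 libraries each), a log2 fold change of 3.80 (2.70 with the offset). The AP-1 subunits FOSB (3.75, 3.16) and FOSL1 (3.42, 2.44), the stress factor ATF3 (3.58, 2.99) and ARNT2, a dimer partner of PAS-domain factors (3.62, 3.48), rose as well. EFR3B, a membrane anchor of a lipid kinase (3.57, 3.37), the neuronal early gene ARC (3.51, 2.94) and the potassium channel KCNJ12 (3.45, 3.16) completed the 12 largest. KCNJ12 and, among the falls below, CCDC144A and ALPG have near-identical copies between which reads may be split. All 12 were called in the same direction with the offset, at 2.44 to 8.51. Ranked with the offset, the endothelial proteoglycan ESM1 (3.31) and TXNIP, an inhibitor of thioredoxin (3.25), joined the 8 largest.

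The largest falls were of long AT-rich transcripts. IKZF2, the zinc finger factor Helios, was at 12.4, 12.4 and 9.43 CPM in the controls and 0.775, 0.859 and 0.685 CPM with extract (log2 fold change -3.88 ± 0.19 (SE), adjusted p = 2.4e-16, -1.58 with the offset). The antiviral SAMD9L was at 30.6, 35.5 and 32.3 CPM in the controls and 2.04, 3.15 and 2.09 CPM with extract (-3.76 ± 0.12, -1.91), and its neighbour SAMD9 at 102, 118 and 121 CPM in the controls and 9.42, 8.38 and 10.9 CPM with extract (-3.57 ± 0.08, -1.47). That neither pair of groups overlapped was a condition of the choice. The other largest falls were ZNF117 (-3.76, -1.25), the matrix proteoglycan LUM (-3.63, -2.10), CCDC144A (-3.58, -1.60), the lipid transporter ABCA5 (-3.58, -1.13), ANKRD26 (-3.57, -1.58), the chromatin reader BAZ2B (-3.52, -1.83), SGO2, a protector of centromere cohesion (-3.52, -1.63), the copper oxidase CP (-3.49, -1.98) and the kinetochore motor CENPE (-3.47, -1.19). LUM is also a fibroblast marker, whose list summed lower with extract. Transcripts of these 12 are 3008 to 9350 nt long with 33.1% to 40.0% GC, those of the 12 rises 577 to 7434 nt with 43.4% to 66.8%. With the offset all 12 falls were called again, at -2.1 to -1.13. The 8 largest falls by that measure were other genes, with 54.1% to 62.7% GC: PAQR6 (-3.95), the meiotic cohesin REC8 (-3.87), the vesicle GTPase RAB26 (-3.77), CYP4F12 (-3.74), ATP6V1B1 of the proton pump (-3.64), ALPG (-3.56), SEC31B (-3.53) and the interferon-induced IFI6 (-3.52).

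**Figure D4:**
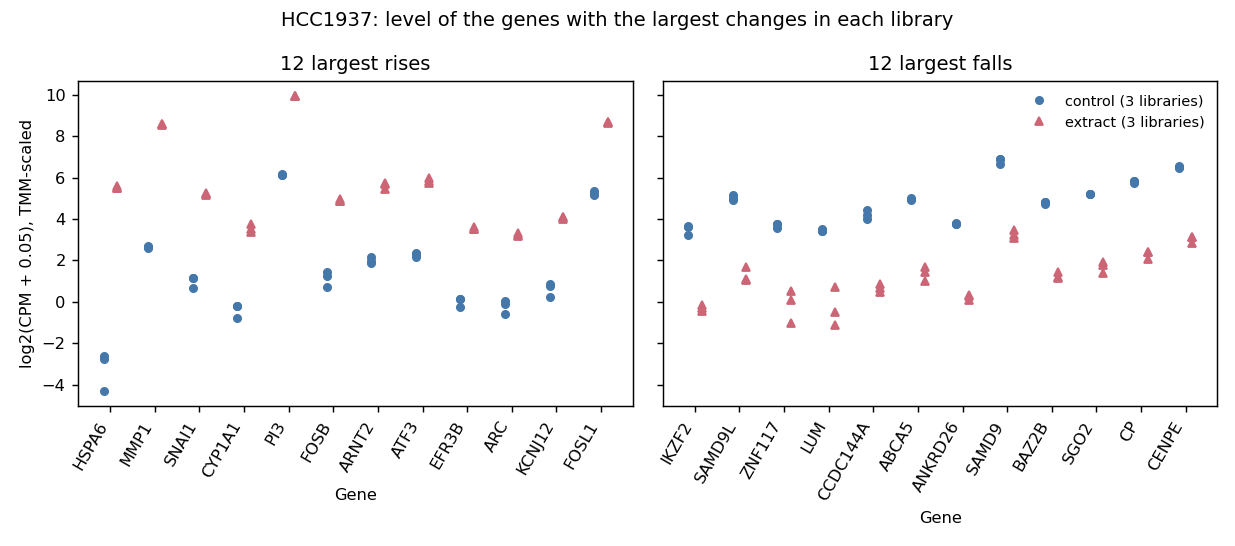
Level of the 12 largest rises (left) and the 12 largest falls (right) in each HCC1937 library, as log2(CPM + 0.05) on the TMM scale (y axis). Circles are the 3 controls and triangles the 3 extract libraries. Only genes whose groups do not overlap could enter this choice.

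Most heat shock genes rose. Of 26 chaperones and co-chaperones 17 rose, 8 fell and 1 passed in neither direction, beside 42.5% rising and 44.2% falling over all genes. Their median was 1.06, or 0.60 with the offset, where 17 rose and 5 fell. Besides HSPA6, the inducible HSP70 genes HSPA1A (from 250.5 to 1019 CPM, 2.02, 1.23) and HSPA1B (1.81, 1.02) rose, though reads of these near-identical copies cannot be fully told apart. The constitutive HSC70, HSPA8, was at 807, 796 and 835 CPM in the controls and 2904, 3024 and 2913 CPM with extract (1.86 ± 0.03, 1.72 with the offset). HSP90 partners rose with it: the immunophilin FKBP4 (from 165 to 701 CPM, 2.08, 1.74), the ATPase activator AHSA1 (1.90, 1.13) and STIP1, which bridges HSP70 and HSP90 (1.58, 0.89). The HSP40 DNAJB1 (1.48, 0.80), the nucleotide exchange factor BAG3 (1.43, 0.67) and HSF1 itself (1.55, 0.72) were also higher.

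The 2 cytosolic HSP90 genes went opposite ways. HSP90AA1, the inducible form, was at 1418, 1452 and 1479.7 CPM in the controls and 431, 438 and 434 CPM with extract (-1.74 ± 0.03, -1.44 with the offset), and HSP90AB1 at 902, 935 and 912 CPM in the controls and 2200.2, 2236 and 2205 CPM with extract (1.27 ± 0.03, 1.05). Among the other falls, the HSP110 gene HSPH1 (-1.44) and the HSP90 co-chaperone CHORDC1 (-1.68) stood at 0.01 and 0.30 with the offset, the first no longer called and the second called up, while DNAJB4 (-2.16) stayed down at -0.43.

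The 250 bases before the annotated start of 3 of these genes are shown because they carry heat shock element pairs (GAANNTTC on either strand, in capitals). Sequences are from RefSeq on GRCh38.p14, and positions count back from the start. HSPA6 (chr1:161524290-161524539, plus strand) has matches at -180 and -69, HSPA1A (chr6:31815293-31815542, plus strand) at -106, and CHORDC1 (chr11:90223050-90223299, minus strand), which fell without the offset but stood at 0.30 with it, at -205, -60 and -50.
HSPA6: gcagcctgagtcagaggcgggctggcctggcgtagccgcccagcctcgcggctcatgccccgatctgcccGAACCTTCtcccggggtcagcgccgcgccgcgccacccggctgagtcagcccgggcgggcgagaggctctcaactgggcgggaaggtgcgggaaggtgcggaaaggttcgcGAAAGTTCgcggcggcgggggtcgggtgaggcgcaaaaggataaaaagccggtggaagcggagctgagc
HSPA1A: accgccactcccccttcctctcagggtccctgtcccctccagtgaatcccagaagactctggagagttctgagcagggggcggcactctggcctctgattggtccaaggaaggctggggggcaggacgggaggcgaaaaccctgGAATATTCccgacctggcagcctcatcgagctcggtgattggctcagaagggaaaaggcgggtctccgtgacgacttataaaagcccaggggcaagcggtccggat
CHORDC1: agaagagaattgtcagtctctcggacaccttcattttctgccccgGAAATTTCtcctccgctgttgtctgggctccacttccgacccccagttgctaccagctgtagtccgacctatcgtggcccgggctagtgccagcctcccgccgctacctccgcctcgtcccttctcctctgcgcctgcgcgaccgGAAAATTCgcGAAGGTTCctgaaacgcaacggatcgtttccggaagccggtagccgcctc
Of 23 chaperone genes with a promoter in the table, 10 (43.5%) held this motif, and of all 10569 promoters of tested genes 429 (4.06%) did. Over all genes, 41.7% of genes with it rose and 45.2% fell, against 42.9% and 44.4% of genes without. A match is a string in this window and not a shown binding site.

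AP-1 and early response factors had a median of 1.27 (0.55 with the offset), and of 20 genes 16 rose, 2 fell and 2 passed in neither direction. With the offset, 13 rose and 6 fell. FOSL1, the FRA1 subunit found in invasive tumour cells, was at 38.3, 35.2 and 40.2 CPM in the controls and 406, 417 and 394 CPM with extract (3.42 ± 0.04, 2.44). ATF3 went from 4.81 to 57.5 CPM, FOSB from 2.23 to 29.9 CPM, JUN from 32.3 to 145 CPM (2.17, 1.55) and FOS from 29.9 to 77 CPM (1.36, 0.69). The growth regulator MYC rose by 1.52 (0.82 with the offset), from 69.1 to 198 CPM. EGR1, an early gene of the same kinase cascade, went the other way (from 38.5 to 17.1 CPM, -1.17, -1.81 with the offset), and so did KLF6 (-0.75, -0.39), which was not called with an offset from the median transcript (-0.05). Feedback inhibitors of MAP kinases rose for 10 of 15 and fell for 3 (median 1.03, 0.74 with the offset). The ERK phosphatase DUSP6 (from 10.0 to 44.9 CPM, 2.16, 2.37), SPRY4, an inhibitor of receptor kinase signalling (2.66, 2.36), DUSP4 (1.45, 1.27) and DUSP1 (1.54, 0.74) were among the rises.

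Of 20 matrix proteases and inhibitors, 14 rose, 4 fell and 2 passed in neither direction (median 0.84, 0.29 with the offset). Beside MMP1, tissue plasminogen activator, PLAT, was at 12.1, 11.4 and 12 CPM in the controls and 77.7, 70.4 and 73.1 CPM with extract (2.64 ± 0.07, 1.96), and the sheddase ADAM19 rose by 1.57 (1.32 with the offset). Inhibitors rose beside the proteases, TIMP1 from 103 to 349.9 CPM (1.77, 0.69) and TIMP3 from 206 to 459.5 CPM (1.16, 1.14). ADAM10, which sheds Notch and cadherins, fell (from 253 to 47.7 CPM, -2.41), with -0.34 left under the offset, and MMP28 fell by both measures (-1.80 and -2.63). Of 12 list members with a promoter in the RefSeq table, 2 held the AP-1 site TGANTCA (either strand), beside 428 (4.05%) of all 10569.

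Epithelial-mesenchymal transition factors had no common direction: of 13, 5 rose, 7 fell and 1 passed in neither direction (median -0.79, -0.32 with the offset). SNAI1 and, with a smaller change, SNAI2 (0.58, 1.22) rose, the latter not called with library totals (0.07), as did OVOL1, which favours the epithelial state (from 20.3 to 60.3 CPM, 1.57, 0.88). The epithelial regulators GRHL2 (-0.79, -0.86 with the offset) and ESRP1 (-0.96, -0.20) fell, although ESRP1 was called up with the median transcript offset (0.24). Lower too were the mesenchymal genes FN1 (from 44 to 11.4 CPM, -1.94, -1.78), ZEB1 (from 1.4 to 0.119 CPM, -3.50, -1.76) and VIM (from 13.5 to 2.86 CPM, -2.24, -2.99). VIM belongs to the trace set, and its own transcripts in HCC1937 and the trace of MDA-MB-231 transcripts cannot be told apart. ZEB1 stood at 2.48% of its MDA-MB-231 level in HCC1937 controls and at 0.148% with extract. It lies outside the trace set because its mean over the 6 libraries exceeds the limit of 1%. A comparison of its level with that set is therefore fixed by the rule.

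The aryl hydrocarbon receptor list was mixed: of 11 genes 5 rose, 4 fell and 2 passed in neither direction (median -0.01, 0.02 with the offset). CYP1A1 and ARNT2 rose, and so did NQO1, a quinone reductase shared with the NRF2 response (from 250.3 to 510.3 CPM, 1.03, 1.102), by both measures. CYP1B1, a related target, fell from 95.9 ± 4.83 to 30.6 ± 0.9 CPM (SD, n = 3 libraries each), a log2 fold change of -1.65 ± 0.05 (-0.92 with the offset), and the receptor AHR itself fell from 160.3 to 30.1 CPM (-2.41, -0.54). The dioxin response core GCGTG (either strand) was found at -57 in the CYP1A1 promoter window of 250 bases, in 4 of 7 list members with a promoter and in 45.2% of all promoters.

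Of 21 NRF2 and glutathione genes, 13 rose, 7 fell and 1 passed in neither direction (median 0.85, 0.16 with the offset). OSGIN1, a stress-induced growth inhibitor (from 3.11 to 25.9 CPM, 3.06, 2.29), and the sulfiredoxin SRXN1 (1.60, 0.96) rose. NFE2L2, the gene of NRF2, fell by 2.20 on the log2 scale and by 2.09 with the offset. The cystine importer SLC7A11 fell as well (from 56.5 to 12.6 CPM, -2.17) but was called up with the offset (0.16). Metal-binding proteins were higher: the metallothioneins MT2A, at 184, 179 and 195 CPM in the controls and 1033, 1087 and 1014 CPM with extract (2.49 ± 0.03, 1.22), and MT1X (from 8.81 to 54.1 CPM, 2.62, 1.495), whose family shares much of its sequence, and the ferritin chains FTL (1.76, 0.66 with the offset) and FTH1 (0.96, 0.24). The zinc importer SLC39A10 fell (-2.54, -0.74). In all, of 7 metallothionein and metal transport genes 4 rose and 3 fell (median 0.64, 0.29 with the offset). Of 10 iron handling genes 5 rose, 4 fell and 1 passed in neither direction, with a median of 0.05, 0.61 with the offset and -0.46 with library totals.

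ATF4 targets rose for 18 of 23 and fell for 4, with a median of 0.50 (0.16 with the offset) that was -0.01 with library totals as the scale. TRIB3, a pseudokinase (from 59.9 to 215 CPM, 1.85, 1.06), PPP1R15A, which reverses the block of translation (1.72, 0.91), and the glutamine carrier SLC1A5 (1.68, 0.98) were among the rises, and the mitochondrial folate enzyme ALDH1L2 fell (-2.67, -1.38). The unfolded protein response of the endoplasmic reticulum was divided: of 21 genes 11 rose, 9 fell and 1 passed in neither direction, and its median of 0.17 was below 0 with the offset (-0.03) and with library totals (-0.34). SDF2L1 rose (1.41, 0.23), and the lumenal HSP90, HSP90B1 (from 559 to 113 CPM, -2.30, -1.66), and the sensor kinase EIF2AK3 (-1.51, -0.91) fell, the last not called with the median transcript offset (-0.13). Among 20 aminoacyl-tRNA synthetases 13 rose, 7 fell and 0 passed in neither direction, from FARSA at 2.08 (1.20 with the offset) and VARS1 at 1.88 (1.46 with the offset) to EPRS1 at -2.08 (-1.21 with the offset).

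Interferon-induced genes fell as a group and kept most of the fall under the offset. Of 34 genes 4 rose, 27 fell and 3 passed in neither direction, and all 27 falls were at least 2-fold, beside 27.7% of all genes tested. The median was -1.82 and -1.55 with the offset, where 30 fell and 1 rose, beside 40.2% and 40.9% of all genes. It was the lowest of the 44 medians with the offset. IFIT1, which binds foreign RNA, was at 52.4, 57.5 and 57.8 CPM in the controls and 7.3, 6.3 and 5.98 CPM with extract (-3.10 ± 0.08, -2.11 with the offset). The RNA sensor IFIH1 (MDA5) was at 28.7, 28.9 and 28.6 CPM in the controls and 2.98, 2.66 and 2.63 CPM with extract (-3.38 ± 0.11, -2.74). HERC5, the ligase that attaches ISG15, went from 34.2 ± 1.2 to 3.46 ± 0.852 CPM (SD, n = 3 libraries each) (-3.30, -2.82). In all 3 the groups were far apart. IFIT3 (-2.83, -2.59), DDX60 (-3.41, -1.73) and IFI6 (-2.42, -3.52) fell too. Of the factors that drive these genes, STAT2 (-1.30, -1.74) and IRF9 (-1.18, -2.03) were lower. MX2 (0.61, 0.28) and the ubiquitin-like ISG15 (0.40) were among the 4 that rose. MX2 was not called with library totals (0.10) or the median transcript offset (-0.01). ISG15 was called down with the offset (-0.86) and with library totals (-0.10), and was not called in the fit of all 12 libraries (0.35).

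Promoters of 3 interferon-induced genes are shown with the matches to an interferon response core (GAAANNGAA on either strand) in capitals. IFIT1 (chr10:89392373-89392622, plus strand) has matches at -115 and -102, HERC5 (chr4:88456869-88457118, plus strand) at -124, -118 and -73, the first 2 overlapping, and ISG15 (chr1:1013247-1013496, plus strand), which did not fall without the offset, at -113, -107 and -101, overlapping in a row.
IFIT1: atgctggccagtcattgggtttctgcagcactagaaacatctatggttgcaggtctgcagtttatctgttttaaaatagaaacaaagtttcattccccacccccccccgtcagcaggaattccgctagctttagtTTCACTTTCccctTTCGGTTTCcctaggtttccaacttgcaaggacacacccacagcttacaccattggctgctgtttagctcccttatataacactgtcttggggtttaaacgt
HERC5: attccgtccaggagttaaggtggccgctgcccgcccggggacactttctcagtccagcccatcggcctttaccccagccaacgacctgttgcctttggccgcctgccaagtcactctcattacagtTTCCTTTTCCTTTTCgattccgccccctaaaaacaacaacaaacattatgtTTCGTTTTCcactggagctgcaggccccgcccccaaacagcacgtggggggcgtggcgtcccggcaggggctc
ISG15: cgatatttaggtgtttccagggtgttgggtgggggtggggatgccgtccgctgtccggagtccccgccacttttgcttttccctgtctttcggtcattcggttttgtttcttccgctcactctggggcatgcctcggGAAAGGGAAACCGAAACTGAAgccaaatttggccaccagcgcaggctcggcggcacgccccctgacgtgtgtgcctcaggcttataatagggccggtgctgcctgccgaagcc
This core was held by 16 of 28 list members with a promoter (57.1%), against 566 (5.36%) of all 10569. Over all genes, 48.4% of those with the core fell and 40.1% rose, against 44.2% and 43.0% without it, and with the offset 42.8% fell and 37.1% rose, against 39.5% and 41.8%.

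**Figure D5:**
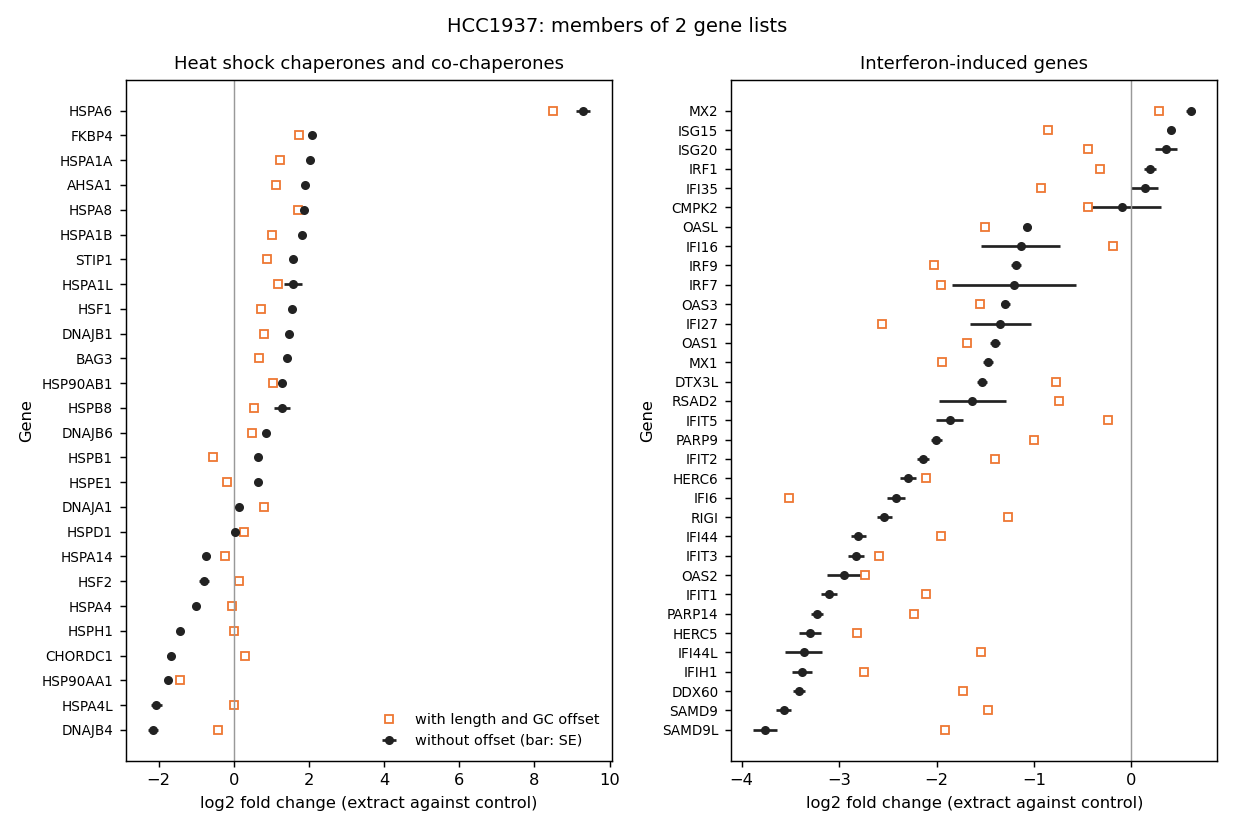
Log2 fold change of extract against control (x axis) for the tested genes of the chaperone list (left) and 33 of the 34 of the interferon-induced list (right). Circles are values without the offset, with their SE, and squares values with it; HSPA6 stands far to the right at 9.29, and most interferon-induced genes lie left of 0 by both measures.

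NF-kB factors, cytokines and chemokines rose for 18 of 28 and fell for 6 (median 0.95, 0.53 with the offset). The subunits RELA (from 77.7 to 218 CPM, 1.49, 0.82) and RELB (1.56, 0.81), the cytokine IL1B (from 6.14 to 27 CPM, 2.14, 1.94) and the adhesion receptor ICAM1 (1.43, 0.77) rose. REL (from 28.3 to 3.42 CPM, -3.05, -1.04), NFKBIZ (-2.43, -2.21 with the offset) and BIRC3, which restrains cell death (-3.02, -0.996), fell. Antigen presentation by MHC class I rose for 8 of 14 and fell for 3. Its median was 0.30, -0.10 with the offset and -0.20 with library totals, with HLA-E at 1.24 (0.54 with the offset) and the peptide trimming ERAP2 at -1.95 (-0.52 with the offset).

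Of the cell cycle, replication and mitosis are given apart. In S phase, of 32 replication genes 22 rose, 7 fell and 3 passed in neither direction (median 0.66, 0.40 with the offset). Cyclin E1, CCNE1, went from 11.7 ± 0.642 to 45.2 ± 1.54 CPM (SD, n = 3 libraries each) (1.95, 1.24), the licensing factor CDT1 rose by 1.69 (1.13 with the offset), and the helicase subunits MCM2 (from 244 to 705 CPM, 1.53, 0.93) and MCM5 (1.53, 0.92) rose. Cyclin E2, CCNE2 (-2.17, -0.62), and the checkpoint adaptor CLSPN (-1.71, -1.15 with the offset) fell. In mitosis, of 31 genes 7 rose, 21 fell and 3 passed in neither direction (median -1.61, -0.56 with the offset). CENPF, a large kinetochore protein, was at 217, 234 and 218 CPM in the controls and 21.7, 22.9 and 21.4 CPM with extract (-3.34 ± 0.05, -1.68 with the offset). ASPM of the spindle pole (-3.36, -1.17), topoisomerase TOP2A (from 623 to 79.3 CPM, -2.97, -1.33) and the proliferation marker MKI67 (from 770.0 to 204 CPM, -1.91, -1.33) fell, whereas CDC20, which activates the anaphase ligase (from 270.2 to 666 CPM, 1.30, 0.38), and the kinase PLK1 (1.21, 0.39) rose.

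Kinesin motors fell for 19 of 23 and rose for 4 (median -1.81, -0.91 with the offset). KIF20B (-3.42, -1.21), the cargo motor KIF5B (from 305 to 40.1 CPM, -2.93, -1.27) and KIF11, which separates spindle poles (-2.56, -0.91), were among the falls. Centrosome and cilium base genes had the lowest median without the offset, -2.42 (-1.13 with it): of 31 genes 4 rose, 26 fell and 1 passed in neither direction, and with the offset 26 fell. CEP295 (-3.44, -1.80), the scaffold AKAP9 (-3.32, -1.22) and PCM1, the core of centriolar satellites, at 69.6, 74.5 and 70.8 CPM in the controls and 8.08, 7.57 and 8.3 CPM with extract (-3.16 ± 0.07, -1.43), are examples. Of 31 genes of homologous recombination and the Fanconi pathway 6 rose, 20 fell and 5 passed in neither direction (median -1.90, -0.49 with the offset). RAD50, which tethers broken ends (from 55.2 to 5.5 CPM, -3.33, -1.87 with the offset), BRCA2 (-3.23, -0.90), the kinase ATM (-3.14, -1.14) and BRCA1 (from 71.3 to 12.4 CPM, -2.52, -1.21) fell. Among 35 chromatin remodellers and lysine methyltransferases 30 fell and 4 rose (median -1.31, -0.64 with the offset), with ATRX at -3.40 (-1.17 with the offset), KMT2A at -1.76 (-0.85 with the offset) and the remodeller ATPase SMARCA4 at 0.96 (0.72 with the offset).

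The 4 genes named in the title were chosen by the study on these samples, so their direction is not independent evidence, and all 4 fell. ROCK1, the kinase that drives actomyosin contraction under RHOA, was at 63.7, 70.8 and 65 CPM in the controls and 8.85, 6.54 and 7.5 CPM with extract (-3.12 ± 0.08, adjusted p = 2.58e-22). ROCK2 was at 71.7, 86.1 and 83.5 CPM in the controls and 10.3, 8.3 and 10.8 CPM with extract (-3.03 ± 0.08), the lipid kinase subunit PIK3CA at 29.1, 32.9 and 30.5 CPM in the controls and 5.34, 6.05 and 5.41 CPM with extract (-2.46 ± 0.09) and the cytokine receptor kinase JAK2 at 2.79, 4.19 and 3.76 CPM in the controls and 0.245, 0.695 and 0.571 CPM with extract (-2.82 ± 0.32). No control library was as low as any extract library in these 4. Their transcripts span 5285 to 9484 nt, at 34.8% to 40.5% GC. With the offset ROCK1 stood at -1.44, ROCK2 at -1.31 and JAK2 at -1.24, while PIK3CA at -0.11 was no longer called.

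Around the title genes both directions were found. Of 25 JAK, STAT and SOCS genes 10 rose, 14 fell and 1 passed in neither direction (median -0.96, -0.29 with the offset). JAK1 fell (from 103 to 47.6 CPM, -1.12, -0.75), STAT3 rose (from 252 to 368 CPM, 0.55, 0.40) but was called neither with library totals (0.04) nor in the fit of all 12 libraries (0.50, adjusted p = 0.0555), and the feedback inhibitors SOCS3 (from 14.2 to 59.3 CPM, 2.06, 1.31) and SOCS1 (2.89, 2.17, at low level) rose. The shared receptor IL6ST fell (from 72.3 to 11.6 CPM, -2.64, -0.46 with the offset), and its ligands IL11 (1.82, 1.04) and IL6 (1.00, 0.92) rose. Over the 9 IL-6 family genes 6 rose, 2 fell and 1 passed in neither direction, with a median of 0.41, 0.09 with the offset and -0.09 with library totals. In PI3K, AKT and mTOR signalling, of 33 genes 12 rose, 19 fell and 2 passed in neither direction, and with the offset 14 rose and 14 fell (median -0.46 and -0.02). RPTOR of mTOR complex 1 rose (from 52.2 to 122 CPM, 1.23, 0.99 with the offset) while RICTOR of complex 2 fell (from 67 to 8.08 CPM, -3.05, -0.84). AKT1 (1.24, 0.69) and the translation repressor EIF4EBP1 (1.99, 0.88) rose, and PIK3C2A fell (-2.90, -0.82).

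Genes of the actin cytoskeleton changed in both directions. The GTPase RHOC, known for its part in metastasis, was at 240.4, 226 and 236 CPM in the controls and 804, 791 and 836 CPM with extract (1.79 ± 0.03, 0.96 with the offset). RND1, which opposes RHOA, rose from a low level (from 0.5 to 8.05 CPM, 4.01, 3.16). The actin-severing CFL1 (1.63, 0.74), profilin PFN1 (1.51, 0.46) and the crosslinker ACTN1 (1.41, 0.84) were higher. CCDC88A, the actin regulator girdin, went from 48.7 ± 3.78 to 4.75 ± 0.579 CPM (SD, n = 3 libraries each) (-3.36, -1.29), and PPP1R12A, the myosin phosphatase subunit that ROCK kinases inhibit, fell by both measures as well (-2.59, -0.95).

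Adhesion genes changed in both directions. Among the 30 members of the integrin and focal adhesion list 15 rose, 14 fell and 1 passed in neither direction (median 0.38, 0.49 with the offset, -0.13 with library totals). The laminin chain LAMB3 (from 251 to 921 CPM, 1.87, 1.37), the fibronectin receptor ITGA5 (1.63, 1.14) and TNS4 (2.13, 1.59) rose. ITGAV (from 136 to 21.4 CPM, -2.67, -0.80), ITGB8 (-2.86, -0.84) and ITGB1 (from 761 to 277 CPM, -1.46, -0.20 with the offset) fell. Cadherin, claudin and desmosome genes fell for 17 of 24 and rose for 7 (median -0.47, -0.44 with the offset). E-cadherin, CDH1, was at 183, 185 and 175 CPM in the controls and 119, 119.7 and 126 CPM with extract (-0.57 ± 0.04, -0.54 with the offset), a fall of less than 2-fold. EPCAM (-0.82, -1.14), the tight junction scaffold TJP1 (-1.94, -1.10) and desmocollin DSC3 (-2.08, -0.45) fell, while the plakophilin PKP3 rose (from 116 to 327 CPM).

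Keratins changed in both directions. Of 18 genes 12 rose, 4 fell and 2 passed in neither direction, and the median of 0.69 went to -0.05 with the offset, where 8 rose and 8 fell. KRT18, a simple epithelial keratin, was at 1255, 1199 and 1224 CPM in the controls and 4253, 4419 and 4249.6 CPM with extract (1.81 ± 0.03, 0.90 with the offset), its partner KRT8 rose by 1.37 (0.70 with the offset) and the stress keratin KRT6A by 2.35 (1.57 with the offset), whose copies share sequence. KRT13 (from 2789 to 1843 CPM, -0.60, -1.54), KRT4 (-1.55, -2.28) and KRT15 (from 349.6 to 113 CPM, -1.63, -2.06), keratins of stratified epithelia, fell, and further with the offset (-1.54, -2.28 and -2.06). Alarmins and elastase inhibitors rose for 13 of 19 and fell for 4 (median 0.68, -0.03 with the offset). Beside PI3, the related inhibitor SLPI (from 207 to 646 CPM, 1.64, 0.61) and the calcium-binding S100A6 (1.69, 0.44) rose, and S100A8 fell (-1.95, -2.91).

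Genes of core metabolism and protein turnover were mostly higher. Glycolysis and hypoxia genes rose for 23 of 29 and fell for 6 (median 1.15, 0.57 with the offset). Enolase, ENO1, was at 1618, 1580.5 and 1579 CPM in the controls and 7359, 7409 and 7452 CPM with extract (2.22 ± 0.02, 1.40 with the offset), and TPI1 (1.97, 1.06), HK1 (1.85, 1.40) and LDHA (1.38, 1.64) rose, while HIF1A, the oxygen-sensing factor, fell (from 252 to 49.1 CPM, -2.36, -0.65). Ribosomal proteins rose for 51 of 53 (median 1.16, 0.57 with the offset), RPS3 (1.64, 1.64) among them. Respiratory chain subunits from the nucleus rose for 41 of 43 (median 1.14, 0.49), among them CYC1 (1.95, 0.85) and NDUFB7 (1.68, 0.35), and all 13 mitochondrially encoded genes rose (median 0.66, 0.32). The summed share of counts of these 13 was 3.53% to 3.69% in controls and 3.78% to 3.98% with extract. Proteasome subunits rose for 25 of 32 and fell for 6 (median 1.01), and with the offset 28 rose and 2 fell (median 0.70). The catalytic PSMB5 (from 128 to 502 CPM, 1.97, 1.16 with the offset) and PSMD2 of the regulatory particle (1.94, 1.37) are examples. Median transcripts of the ribosomal, respiratory and proteasome lists are 1181, 1263 and 1586 nt long, against 3350 nt over all genes tested. Reference genes used in quantitative PCR moved too: 11 of 15 rose and 1 fell (median 0.89, 0.48 with the offset), with ACTB at 1.20 and GAPDH at 1.39, or 0.35 and 0.48 with the offset.

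Lipid genes were divided. Of 26 cholesterol genes 12 rose, 13 fell and 1 passed in neither direction, and with the offset 5 rose and 18 fell (median -0.12 and -0.25). The sterol sensor INSIG1 fell by both measures (from 114 to 38.4 CPM, -1.57, -1.47). Fatty acid genes fell for 13 of 18 and rose for 5 (median -0.71, -0.17 with the offset). The desaturase SCD was at 2035, 2123 and 2095 CPM in the controls and 625, 634 and 623 CPM with extract (-1.73 ± 0.03, -1.47), and the elongase ELOVL1 rose (1.70, 0.81). Lysosome and autophagy genes rose for 25 of 35 and fell for 8 (median 0.61, 0.31 with the offset), with cathepsin B, CTSB (from 249.6 to 949.9 CPM, 1.93, 1.48), the galactosidase GLA (1.85, 1.248) and the autophagy receptor SQSTM1 (1.40, 0.70) higher and RB1CC1, which starts autophagosomes, lower (-3.02, -1.10).

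Growth factor and survival signalling changed in both directions. EGF family ligands HBEGF (from 29.6 to 109 CPM, 1.89, 1.36) and TGFA (from 60.3 to 134 CPM, 1.15, 1.47) rose, BTC (-2.63, -1.60) fell, and EGFR fell (from 193 to 119 CPM, -0.70, -0.15 with the offset). Of 10 such genes 3 rose, 5 fell and 2 passed in neither direction (median -0.60, -0.04 with the offset). In the TGF-beta pathway, of 23 genes 9 rose, 11 fell and 3 passed in neither direction, and the median turned from -0.12 to 0.27 with the offset. TGFB1 rose (from 30.4 to 107 CPM, 1.82, 1.12), and the co-receptor TGFBR3 (-2.32, -1.41) and the repressor SKIL (-2.75, -0.41) fell. Of 20 YAP and TEAD genes 7 rose, 10 fell and 3 passed in neither direction (median -0.10, -0.08 with the offset), with TEAD4 at 2.46 (1.49 with the offset) and TEAD1 at -2.37 (-0.88 with the offset). Of 22 p53 targets and CDK inhibitors 9 rose, 10 fell and 3 passed in neither direction (median -0.18, -0.37 with the offset). CDKN1A, the p21 inhibitor, was at 38.7, 38.2 and 35.9 CPM in the controls and 146, 159 and 143 CPM with extract (1.99 ± 0.05, 1.16) and GADD45B rose (1.73, 0.73), whereas MDM2 (-2.50, -0.90) and the death receptor FAS (-2.54, -1.42) fell. Of 28 apoptosis regulators 12 rose, 14 fell and 2 passed in neither direction (median -0.18, -0.04 with the offset). The pore former BAK1 (1.82, 0.98) and its antagonist BCL2L1 (1.78, 1.03) both rose, and the inhibitor BIRC6 fell (-2.52, -0.98). Of 25 replication-dependent histone genes, whose copies share sequence and whose messages largely lack a poly-A tail, 11 rose, 3 fell and 11 passed in neither direction, and the median of 0.55 turned to -0.37 with the offset.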

How the data were processed

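Per the submitters' processing notes, reads were checked with FastQC 0.12.1, trimmed with fastp 0.23.4 and quantified with Salmon 1.10.3 on GRCh38. DESeq2 and R 4.4.1 are also named there, but no annotation. The authors deposited 1 table of expected counts per gene for 12 libraries, and over these 12 libraries 52.8% of the values of genes with a symbol are not whole. These estimated counts were rounded. Genes passing filterByExpr in the 6 HCC1937 libraries were tested with edgeR 4.0.16 (TMM, quasi-likelihood, Benjamini-Hochberg) in R 4.3.3. CPM of single genes are on the TMM scale, and marker and trace sums are per library total. Length and GC came from the longest protein-coding transcript of GENCODE release 29, and the offset from a smooth surface per library (mgcv 1.9.3). The test was tested on simulated data, and the outcome is not given here. Alternatives used limma 3.58.1, DESeq2 1.42.0, other scalings and filters, all 12 libraries and leaving out each library. Named are the title genes, the 12 largest changes each way with a mean of at least 5 CPM, the 8 largest with the offset, and members of gene lists. To enter the largest changes, a gene also had to pass at an adjusted p under 0.05. Its control and extract libraries could not overlap, so the lack of overlap in these genes is fixed by the choice. The members and lists were chosen with earlier results of these data known. Labels do not say how copies that share sequence were handled. Some genes and 1 gene list are not reported here.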

Additional observations from a re-analysis of the deposited data

Results flagged for a closer look

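For 7 of the 12 genes compared, the extract effect differed between the lines in an interaction term over all 12 libraries (edgeR, adjusted over all genes). Compared were the title genes and the largest rises and falls in HCC1937, whose choice used the same HCC1937 values that enter the difference. The share of all genes that pass is not given here, so 7 of 12 cannot be read as high or low. MDA-MB-231 received another dose of the extract, 140 µg/mL, so line and dose cannot be told apart. Values are the log2 fold change in HCC1937 minus that in MDA-MB-231. HSPA6 differed by 12.03 (adjusted p = 1.9e-09), having fallen by 2.80 in MDA-MB-231, where its controls stood at 80.1 CPM. MMP1 differed by 4.698 (adjusted p = 1.9e-09) and rose in MDA-MB-231 as well, by 1.18. SNAI1 differed by 4.79 (adjusted p = 5.3e-08) and CYP1A1 by 4.058 (adjusted p = 1.14e-06), at -0.62 and -0.11 in MDA-MB-231, the latter without passing. The kinases fell in both lines, and less so in HCC1937: ROCK1 by a difference of 1.082 (adjusted p = 0.00642), PIK3CA of 0.8633 (adjusted p = 0.00925) and ROCK2 of 0.6387 (adjusted p = 0.0423). The differences were fitted without the length and GC offset, and these kinases have long AT-rich transcripts. Whether the trend with length and GC differs between the lines was not tested. One MDA-MB-231 extract library, E7, stood apart from its group. Without it the differences were 12.03 for HSPA6, 4.80 for MMP1, 4.91 for SNAI1, 3.99 for CYP1A1, 1.31 for ROCK1, 0.70 for PIK3CA and 0.50 for ROCK2, and all 7 still passed. JAK2, IKZF2, SAMD9L, ZNF117 and LUM did not pass in either fit.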

How the results depend on the processing

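No paired analysis was possible because the replicate numbers of the groups (25 to 27 and 31 to 33) do not overlap. Leaving out each library in turn gave 5409 to 5494 rises and 5614 to 5767 falls, of which 2502 to 2584 and 3589 to 3687 were at least 2-fold. Tested against a 1.5-fold change, 3664 genes rose. Rises of at least 2-fold numbered 1279 with the length and GC offset, 1520 with an offset from the median transcript and 969 with library totals, and falls of that size 2174 and 2299 with the 2 offsets. Length and GC of the median transcript accounted for 36.09% of the variance. Directions turned with the offset for HSPH1 (0.01445), CHORDC1 (0.3005), SLC7A11 (0.1624) and ISG15 (-0.8603). With the median transcript offset they turned for HSPH1 (0.2096), CHORDC1 (0.1062), ESRP1 (0.2442), SLC7A11 (0.243), ISG15 (-0.4035) and MX2 (-0.008961), and with library totals for ISG15 (-0.1041). The trace level in controls was 0.4642% with genes of at least 20 CPM in MDA-MB-231, 0.3729% with 100 CPM (extract 0.09696%), 0.3607% with an upper limit of 0.5% (extract 0.07936%) and 0.6722% with 2% (extract 0.9667%, above the controls). The cause of these turns was not tested. No other named gene for which the alternatives were compared changed direction. Apart from VIM, the genes of the trace set were not compared in this way. Calls were also lost for PIK3CA with the offset, for KLF6 and EIF2AK3 with the median transcript offset, for SNAI2, STAT3 and MX2 with library totals, for STAT3 and ISG15 with all 12 libraries, and for SNAI2, STAT3, MX2, ISG15, CDH1 and KRT13 against a 1.5-fold change. The offset depends on which transcript stands for a gene, no measure fixes RNA per cell, and genes with few reads, including most of the trace set, could not be tested.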
